A study of Arabidopsis thaliana with 9 samples.

Results

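Aquaporins are channel proteins that let water and small neutral solutes cross membranes. In Arabidopsis they fall into 4 classes. Plasma membrane intrinsic proteins (PIPs) carry water across the cell surface, and some also pass hydrogen peroxide, a signal of plant immune responses. Tonoplast intrinsic proteins (TIPs) sit mainly in the membrane of the vacuole and carry water and, in some members, ammonia or urea. Nodulin 26-like intrinsic proteins (NIPs) pass solutes such as boric acid or arsenite, and small basic intrinsic proteins (SIPs) reside in the endoplasmic reticulum. The family was taken by locus code: 35 of the 32833 loci in the count table, with 13 PIP, 10 TIP, 9 NIP and 3 SIP genes, and all 35 were present in the table.

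RNA was sequenced from whole seedlings of Arabidopsis thaliana ecotype Col-0, all wild type, grown for 5 days on solid half-strength MS medium and for 5 more in liquid. There were 3 groups of 3 libraries each: mock, flg22 (100 nM) and 2'-aminoacetophenone (abbreviated 2-AA, 200 uM). Flg22 is a peptide of bacterial flagellin that plants detect with a cell-surface receptor, and 2-AA is a quorum sensing molecule, a small compound that bacteria release and use to sense their own density. The sources used here give neither the time of treatment nor the hour of harvest, and mock libraries carry a label of no treatment. The series' design text calls the libraries biological replicates. Because whole seedlings were used, fewer cells of a type and less RNA per cell cannot be told apart in any value below.

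Libraries held 26644996 to 33195007 counts, so that 3 counts, the floor used here, correspond to 0.0904 to 0.113 CPM, the unit of all levels below, which scales the counts of each library by its size with edgeR's TMM method. Floors cover counting error only, and loci at 2 counts (712 to 773 per library) outnumbered loci at 1 count (284 to 324), so values near the floor are less certain than their counts imply. FRK1, a receptor kinase gene known to respond to flg22, rose by 5.86 on the log2 scale with flg22 (SE 0.35, edgeR adjusted p = 1.56e-08) and by 6.37 with 2-AA (SE 0.35, adjusted p = 5.84e-09). The share of counts on organelle genes was 0.154% in mock replicate 3, 0.109% in flg22 replicate 2 and 0.366% in 2-AA replicate 2, against 0.0301% to 0.0382% in the other 6 libraries. Of 21059 genes tested with edgeR's quasi-likelihood test, 59.2% were called (Benjamini-Hochberg adjusted p under 0.05) between flg22 and mock, 62.2% between 2-AA and mock, and 15.8% between 2-AA and flg22. Both treated groups were compared with the same mock libraries, so the comparisons with mock are not independent of each other.

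Clock genes moved in the same libraries as the aquaporins. Of 11 such genes, 6 were called higher and 4 lower with flg22 and likewise with 2-AA. The lower genes were LHY, CCA1, PRR9 and RVE8 in both comparisons. LHY stood at 221 ± 11.1 CPM in mock, 6.02 ± 2.76 with flg22 and 2.91 ± 2.21 with 2-AA (SD, n = 3). The evening gene TOC1 rose by 2.96 on the log2 scale with flg22 (SE 0.08, edgeR adjusted p = 4.5e-11) and by 2.99 with 2-AA (SE 0.08, adjusted p = 2.53e-11). ELF4 rose by 4.46 (SE 0.12, adjusted p = 4.5e-11) and 4.72 (SE 0.12, adjusted p = 2.04e-11), and ELF3 by 2.44 (SE 0.07, adjusted p = 9.86e-11) and 2.58 (SE 0.07, adjusted p = 4.01e-11). A difference in clock phase and the treatments cannot be told apart in these groups, and this holds for every comparison with mock below. Photosynthetic shoot markers summed to 48240 to 50643 CPM in mock, 38610 to 43108 with flg22 and 33535 to 37464 with 2-AA. Of 10 such markers, 8 and 9 were called lower and 1 and 0 higher, or 90% called in each comparison. Root markers summed to 193 to 230 CPM in mock, 148 to 176 with flg22 and 166 to 187 with 2-AA. Of 15 root markers, 9 and 6 were called lower and 0 and 1 higher, or 60% and 46.7% called. Of all genes 59.2% and 62.2% were called. The part of either marker list, or of the clock genes, in the aquaporin results was not tested. Of 7 seed and 5 pollen markers none reached the level needed for a test, and 4 of each list were at 0 in every library.

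In mock seedlings the family was dominated by a few PIP and TIP genes. Levels are compared between genes as CPM per kilobase (kb) of exon. The vacuolar water channel gene TIP1;2 stood first at 854 CPM per kb (range over the libraries 819 to 878), followed by PIP2;1 at 707 (682 to 742), PIP1;2 at 592 (568 to 604) and TIP1;1 at 451 (429 to 472). The ranges of these 4 genes did not overlap. TIP2;1 (307), PIP2;7 (295) and PIP1;1 (274) came next, each overlapping its neighbour among the 3. The 13 most abundant genes, which reached down to a mean of 82.1 CPM per kb, were all PIP or TIP genes. Each of them was called lower with flg22 and with 2-AA, comparisons that share the mock libraries. The cut at 13 was set by these calls, so their agreement is no test. The next gene, PIP1;5 at 79 CPM per kb, was not called with flg22 (edgeR adjusted p = 0.432). Of all genes, 29.4% were called lower with flg22 and 31.1% with 2-AA. No NIP gene exceeded a mean of 17.1, and the most abundant SIP gene was SIP1;1 at 47.5. PIP genes made up 58.3% to 59.8% of the family's summed CPM per kb in mock, TIP genes 37.8% to 39.1%, NIP genes 1.04% to 1.28% and SIP genes 1.36% to 1.49%.

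Of the 35 genes, 30 passed the filter on low counts: 13 of 13 PIP, 7 of 10 TIP, 7 of 9 NIP and 3 of 3 SIP. TIP5;1 and NIP4;1 had 0 counts in all 9 libraries, while TIP3;1 had 2 counts over the 9 libraries together, TIP1;3 had 16 and NIP4;2 had 24. These genes are known from pollen, or in the case of TIP3;1 from seeds, whose markers were near 0 here. NIP2;1, a lactic acid channel gene of oxygen-starved roots, and NIP7;1, known from anthers, passed the filter at under 1 CPM in every library and were not called in any comparison. The exons of NIP2;1 overlap AT2G08660 on the opposite strand over 59.7% of their length, and strand use in counting is not given.

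**Figure D1:**
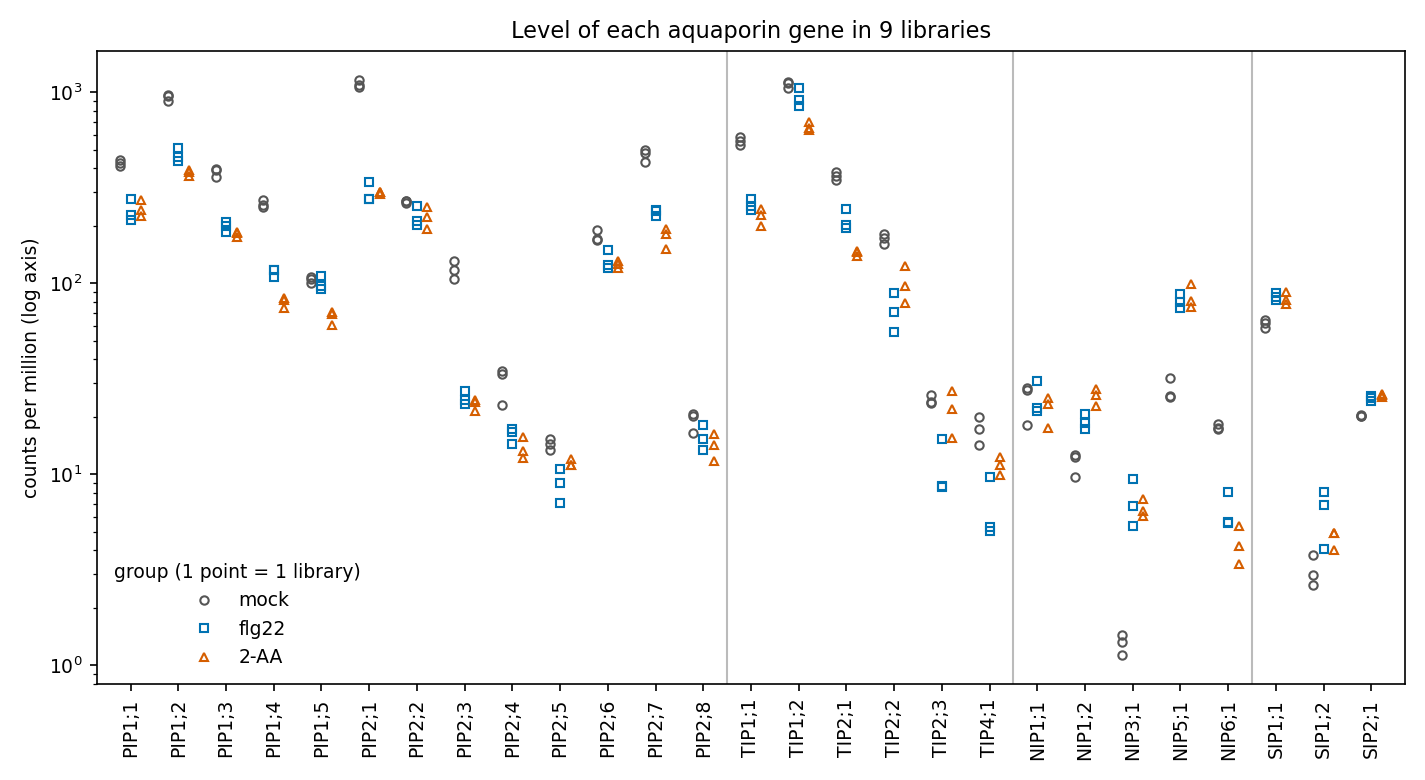
Level of 27 aquaporin genes in each of the 9 libraries, in CPM on a log axis, with mock as circles, flg22 as squares and 2-AA as triangles. The genes with a mean of at least 1 CPM in some group are shown. The highest circle of the PIP2 group lies at 1168 CPM, and the squares of that gene lie at 278 to 341.

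Most PIP genes fell with flg22 and all 13 fell with 2-AA, and most called TIP genes fell with both, while the called NIP genes were divided and the called SIP genes rose. The 2-AA calls of PIP2;2, PIP2;5 and PIP2;8 were lost on leaving out single libraries. With flg22, 25 of the 30 genes tested were called, which is 83.3% beside 59.2% of all genes: 18 lower (29.4% of all genes) and 7 higher (29.8%). At least 2-fold lower were 10 of the 30, beside 9.71% of all genes, and at least 2-fold higher 4, beside 9.26%. With 2-AA, 25 were called beside 62.2% of all genes, 19 lower (31.1% of all genes) and 6 higher (31.2%). At least 2-fold lower were again 10, beside 11.9%, and at least 2-fold higher 4, beside 10.1%. The median log2 fold change over the 30 genes was -0.73 with flg22 and -0.55 with 2-AA, where the median of all genes was 0.00 in both. Groups did not overlap for 24 of the 30 genes with flg22, beside 65.5% of all genes, and for 26 with 2-AA, beside 67.8%. One of the 30, the scarce seed gene TIP3;2, passed the filter only through the treated libraries. Without it 24 of 29 genes were called in each comparison, 6 of them higher with flg22 and 5 with 2-AA, and 3 were at least 2-fold higher in each.

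The counts by class were as follows. Of 13 PIP genes, 11 were lower with flg22 and 13 with 2-AA, with median log2 fold changes of -0.92 and -1.08. Of 7 TIP genes tested, 6 and 5 were lower and 1, TIP3;2, was higher in each comparison, with medians of -1.11 and -0.73. Of 7 NIP genes tested, 3 were higher and 1 lower in each comparison, with medians of 0.00 and 0.15. This is 57.1% called, beside 59.2% and 62.2% of all genes. Of 3 SIP genes, 3 and 2 were higher, with medians of 0.48 and 0.44. The TIP and NIP genes that failed the filter are not in these counts.

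**Figure D2:**
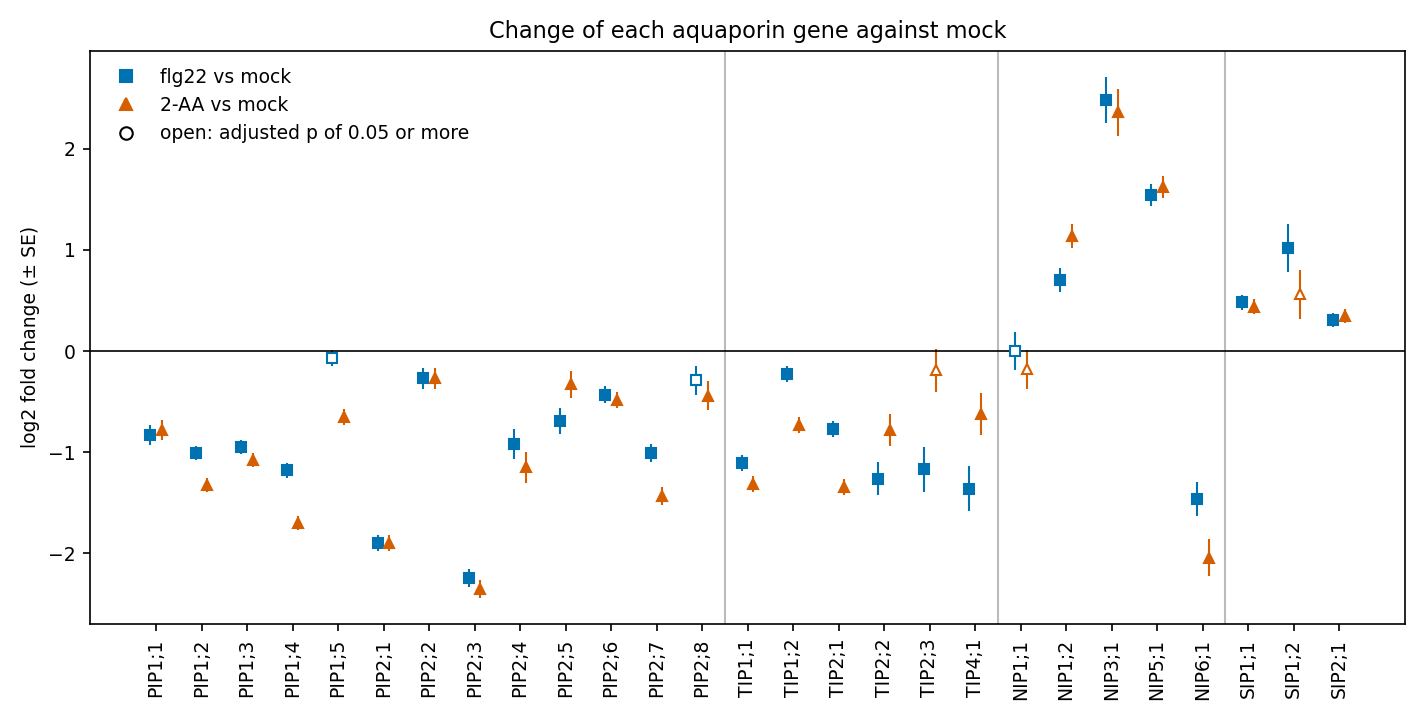
Log2 fold change of the same 27 genes against mock, with standard errors as bars, for flg22 (squares) and 2-AA (triangles). Open symbols mark an adjusted p of 0.05 or more. All PIP values lie below 0, down to -2.24 and -2.35 in PIP2;3, and the SIP values lie above 0.

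Summed over each class, the level per kb of exon was lower in the treated libraries for the PIP and TIP genes. The PIP sum was 2744 ± 60.8 CPM per kb in mock, 1319 ± 109 with flg22 and 1172 ± 19.9 with 2-AA (SD, n = 3 each), or 0.48 and 0.427 of mock. Leaving out the most abundant PIP gene, the sums were 0.554 and 0.482 of mock. The TIP sum was 1775 ± 33.4, 1187 ± 114 and 919 ± 57.8, or 0.669 and 0.518 of mock. Within it TIP1;2 alone stood at 854, 729 and 514, and TIP1;1, the next TIP gene, at 451, 209 and 182. A TIP sum without TIP1;2 was not taken. In the PIP and TIP sums every treated library lay below every mock library. The NIP sum was 54.1 ± 5.25 in mock, 78 ± 0.28 with flg22 and 81.1 ± 10.7 with 2-AA, and the SIP sum 65.6 ± 2.71, 90.5 ± 3.32 and 88 ± 4.67. In these 2 classes every treated library lay above every mock library. Without NIP5;1 the NIP sum was 41.3 ± 3.89 in mock, 40.8 ± 3.18 with flg22 and 41.7 ± 5.33 with 2-AA, where the groups overlapped. The whole family came to 4639 ± 56.8 in mock, 2674 ± 221 with flg22 and 2260 ± 91.8 with 2-AA. PIP genes made up 49.2% to 49.4% of the family with flg22 and 50.5% to 53% with 2-AA, below their mock share, and TIP genes 43.8% to 45% and 39.9% to 41.6%, above theirs. The share of TIP1;2 alone was 17.8% to 18.7% in mock, 26% to 28% with flg22 and 22.1% to 23.1% with 2-AA. That of TIP1;1 went the other way, at 9.13% to 10.3%, 7.03% to 8.85% and 7.38% to 8.39%.

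**Figure D3:**
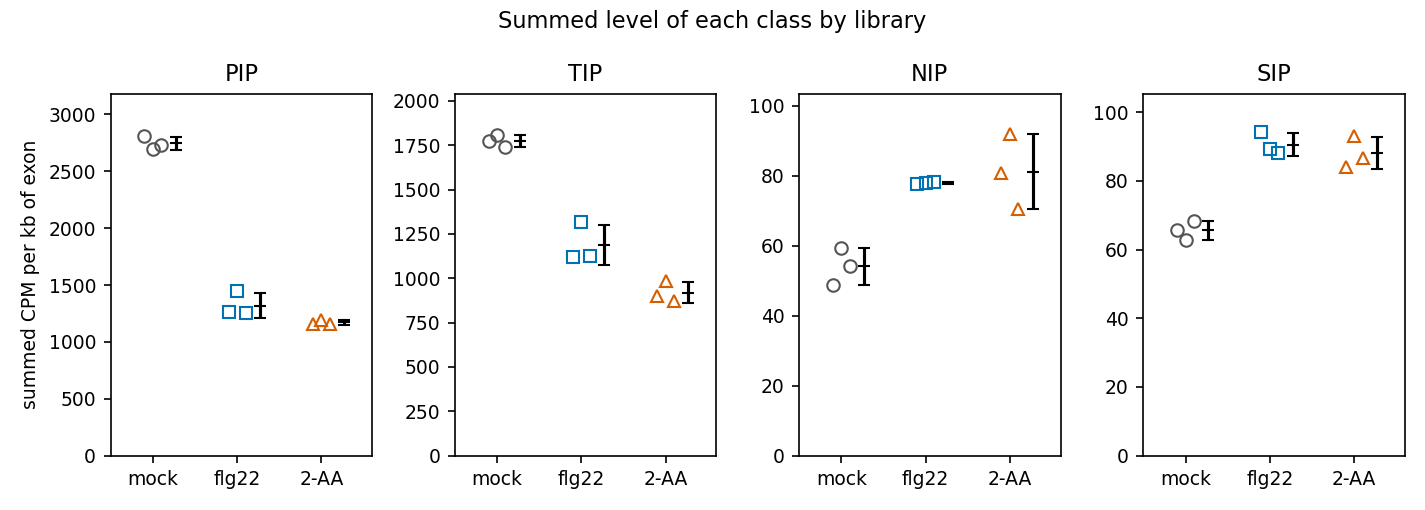
Summed CPM per kb of exon of the PIP, TIP, NIP and SIP genes in each library (open symbols), with the mean and SD of each group of 3 libraries beside them, each axis starting at 0. The PIP sum in mock was 2744 and the flg22 and 2-AA sums 1319 and 1172, while the NIP and SIP sums were higher in all treated libraries than in mock. Without NIP5;1 the mean NIP sums were 41.3 in mock, 40.8 with flg22 and 41.7 with 2-AA.

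Among the PIP2 genes, which encode the more active water channels, PIP2;1 (AT3G53420, chr3:19803473-19805730, minus strand) was the most abundant. It is a main water channel gene of roots and leaves, and its protein is known to conduct hydrogen peroxide and to take part in stomatal closure. Its level was 1168, 1072 and 1096 CPM in mock, 278, 341 and 278 with flg22, and 300, 293 and 302 with 2-AA. The treated libraries lay far below the mock libraries and overlapped each other. The log2 fold change was -1.90 with flg22 (SE 0.08, edgeR adjusted p = 1.07e-09) and -1.90 with 2-AA (SE 0.08, adjusted p = 6.87e-10), and the treatments differed by 0.00 (SE 0.08, adjusted p = 0.989). The gene's share of the family's summed CPM per kb went from 14.7% to 15.8% in mock to 6.93% to 7.4% with flg22 and 7.88% to 8.77% with 2-AA.

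PIP2;2 and PIP2;3 are near copies that lie head to head on chromosome 2, 2612 bases apart, at chr2:15613368-15615022 (minus strand) and chr2:15617635-15619155 (plus strand). Their coding sequences differ at 45 of 858 aligned bases (94.8% identity), the closest pair of the family by this measure. A stretch of 60 coding bases with 10 differences is shown because reads that cover it can tell the genes apart. Capitals mark the bases that differ, and positions count from 1 at the start codon of the longest annotated coding sequence (543 to 602 in the first gene and 414 to 473 in the second, RefSeq annotation of TAIR10.1).
PIP2;2: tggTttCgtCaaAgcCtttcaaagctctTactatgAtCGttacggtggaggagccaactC
PIP2;3: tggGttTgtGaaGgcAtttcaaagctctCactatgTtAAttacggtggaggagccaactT
Of all windows of 50 exon bases, 19.6% in the first gene and 21.7% in the second occur unchanged in the other, and how the submitters assigned reads that match both is not stated in the material used here.

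PIP2;3, also named RD28 and first described as a gene induced by drying, stood at 131, 106 and 118 CPM in mock, 23.5, 27.3 and 24.5 with flg22, and 23.9, 24.6 and 21.4 with 2-AA. It lay well below mock in all 6 treated libraries. Its log2 fold change was -2.24 with flg22 (SE 0.09, edgeR adjusted p = 6.64e-10) and -2.35 with 2-AA (SE 0.09, adjusted p = 3.39e-10). The level of PIP2;2, a water channel gene of roots, was 264, 270 and 270 CPM in mock, 211, 255 and 202 with flg22, and 223, 252 and 193 with 2-AA. It was just below mock in the treated libraries and was called lower at adjusted p = 0.0336 and 0.0316. The flg22 call was lost without mock replicate 1, 2 or 3 or flg22 replicate 1 or 3 (adjusted p 0.0685 to 0.123), and the 2-AA call without mock replicate 1, 2 or 3 or 2-AA replicate 1 or 3 (0.0654 to 0.139). The ratio of PIP2;2 to PIP2;3, per kb, was 1.82 to 2.32 in mock, 7.48 to 8.49 with flg22 and 8.19 to 9.28 with 2-AA. The pair's summed level was 387 ± 9.81 CPM in mock, 248 ± 30.2 with flg22 and 246 ± 30.7 with 2-AA (SD, n = 3 each). This sum does not depend on how shared reads were split between the genes. It does depend on whether such reads were dropped or counted for both.

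**Figure D4:**
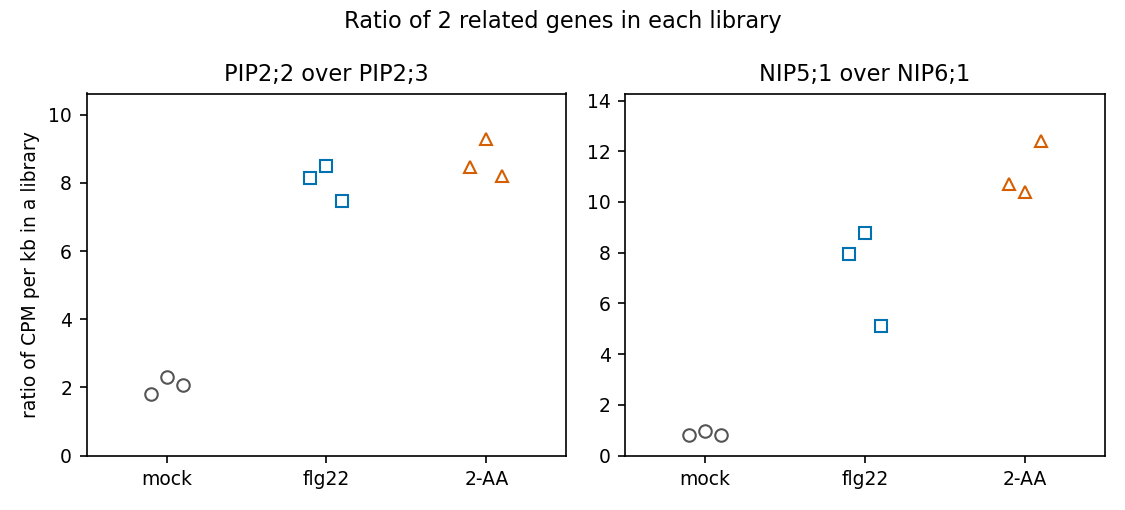
Ratio of PIP2;2 to PIP2;3 (left) and of NIP5;1 to NIP6;1 (right) in each library, from CPM per kb, with axes that start at 0. The first ratio was 1.82 to 2.32 in mock and 7.48 to 9.28 in the treated libraries, and the second was under 1 in mock and at least 5.11 in the treated libraries.

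PIP2;7 (AT4G35100, chr4:16708361-16710407, plus strand), a water channel gene known to be repressed by salt, stood at 501, 484 and 434 CPM in mock, 226, 241 and 238 with flg22, and 181, 152 and 193 with 2-AA. The 3 groups did not overlap, and 2-AA was lowest. Against mock, its log2 fold change was -1.01 with flg22 (SE 0.09, edgeR adjusted p = 4.05e-07) and -1.43 with 2-AA (SE 0.09, adjusted p = 1.34e-08), and the treatments differed by -0.42 (SE 0.09, adjusted p = 0.00482). PIP2;4, a root gene, was at 23 to 34.7 CPM in mock, 14.4 to 17.2 with flg22 and 12.2 to 15.7 with 2-AA, and its change was -1.15 with 2-AA (SE 0.15, adjusted p = 2.07e-05). PIP2;6, at 168 to 190 CPM in mock, was called lower in both comparisons at 120 to 149 and 121 to 131.

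The other PIP2 genes were scarce. PIP2;5, at 13.5 to 15.4 CPM in mock, was called lower at 7.12 to 10.7 CPM with flg22 and 11.2 to 12.1 with 2-AA. Its 2-AA call (adjusted p = 0.047) was lost in 11 alternatives, without any 1 of the mock or 2-AA libraries or without flg22 replicate 1 among them (0.0504 to 0.15 over all 11). Between the treatments it was called without flg22 replicate 3 (0.0244, against 0.0976). PIP2;8 stood at 16.5 to 20.8 CPM in mock, 13.5 to 18.2 with flg22 (adjusted p = 0.0978) and 11.8 to 16.2 with 2-AA, where it was called lower (adjusted p = 0.0161). The treatments differed by -0.15 in that gene (SE 0.14, adjusted p = 0.538). Its 2-AA call was lost without mock replicate 1 or 2 or 2-AA replicate 2 (0.0584 to 0.0693), and it was called with flg22 on leaving out flg22 replicate 3 (0.031) and with the organelle-rich libraries as a term (0.0203).

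Proteins of the PIP1 group mostly reach the cell surface together with a PIP2 partner. The most abundant of their genes, PIP1;2, stood at 962, 907 and 965 CPM in mock, 458, 513 and 435 with flg22, and 363, 394 and 382 with 2-AA. All treated libraries lay below mock and all 2-AA libraries below flg22. On the log2 scale it changed by -1.01 with flg22 (SE 0.07, edgeR adjusted p = 5.48e-08) and -1.32 with 2-AA (SE 0.07, adjusted p = 4.18e-09). The treatments differed by -0.30 (SE 0.07, adjusted p = 0.00921), a call lost without 2-AA replicate 1 (0.0525). PIP1;1 stood at 411 to 442 CPM in mock, 214 to 277 with flg22 and 226 to 274 with 2-AA, a change of -0.83 (SE 0.10, adjusted p = 6.65e-06) and -0.78 (SE 0.10, adjusted p = 9.55e-06), with a difference of 0.05 between the treatments (SE 0.10, adjusted p = 0.806). PIP1;3 stood at 360 to 397 CPM in mock, 186 to 210 with flg22, where it was called lower, and 175 to 185 with 2-AA, a change of -1.08 (SE 0.07, adjusted p = 1.37e-08).

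PIP1;4 (AT4G00430, chr4:185285-187680, minus strand) encodes a channel known to carry hydrogen peroxide into the cell during immune responses. Its level was 275, 250 and 258 CPM in mock, 118, 108 and 118 with flg22, and 84, 74.6 and 81.9 with 2-AA. The 3 groups stood apart, with 2-AA lowest. Its log2 fold change against mock was -1.18 with flg22 (SE 0.07, edgeR adjusted p = 1.25e-08) and -1.70 with 2-AA (SE 0.07, adjusted p = 5.24e-10), and the treatments differed by -0.52 (SE 0.07, adjusted p = 0.000219). PIP1;5 was at 101, 105 and 108 CPM in mock, 97.3, 109 and 93.6 with flg22, and 69.3, 70.7 and 60.8 with 2-AA. Its flg22 libraries overlapped mock (adjusted p = 0.432) and its 2-AA libraries lay below both (adjusted p = 6.62e-06 against mock). The difference between the treatments was -0.58 in this gene (SE 0.08, adjusted p = 0.000216).

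The most abundant TIP gene, TIP1;2, had the smallest change of the called TIP genes with flg22. Its level was 1132, 1117 and 1057 CPM in mock, 911, 1060 and 852 with flg22, and 636, 701 and 653 with 2-AA. Flg22 replicate 2 overlapped mock, and the 2-AA libraries lay below all others. The call with flg22 (adjusted p = 0.0227) was lost without mock replicate 1 or 2 or flg22 replicate 1 or 3 (0.0754 to 0.095), while those of 2-AA against mock (adjusted p = 2.79e-06) and against flg22 (0.000724) were not lost on leaving out any library. The gene's share of the family's summed CPM per kb went from 17.8% to 18.7% in mock to 26% to 28% with flg22 and 22.1% to 23.1% with 2-AA. TIP1;1, the gamma-TIP of growing vacuoles, stood at 531, 558 and 584 CPM in mock, 242, 255 and 278 with flg22, and 229, 245 and 200 with 2-AA. Its treated libraries lay below mock and overlapped each other. The log2 fold change was -1.11 with flg22 (SE 0.08, edgeR adjusted p = 1.01e-07) and -1.31 with 2-AA (SE 0.08, adjusted p = 1.67e-08), and the treatments differed by -0.20 (SE 0.08, adjusted p = 0.118).

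The TIP2 genes, whose proteins can carry ammonia as well as water, did not move alike. TIP2;1, or delta-TIP, stood at 367, 383 and 346 CPM in mock, 194, 246 and 203 with flg22, and 146, 139 and 148 with 2-AA. The 3 groups did not overlap and 2-AA was lowest. Against mock, its log2 fold change was -0.77 with flg22 (SE 0.08, edgeR adjusted p = 3.93e-06) and -1.34 with 2-AA (SE 0.08, adjusted p = 1.89e-08), and the treatments differed by -0.57 (SE 0.08, adjusted p = 0.000486). The exons of delta-TIP overlap genes on the opposite strand over 10.1% and 3.87% of their length, and whether strand was used in counting is not stated in the material used here. TIP2;2 stood at 172, 181 and 161 CPM in mock, 55.4, 88.9 and 71.1 with flg22, and 97.1, 123 and 78.8 with 2-AA. All treated libraries were below mock, and flg22 replicate 2 and 2-AA replicate 3 made the treated groups overlap. The change was -1.26 with flg22 (SE 0.16, adjusted p = 2.16e-05), and the gene was called lower with 2-AA too. Between the treatments it was not called (adjusted p = 0.0709), but was called higher with 2-AA in 6 alternatives, which included leaving out flg22 replicate 2 or 2-AA replicate 3 (0.019 to 0.0354).

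TIP2;3 stood at 24, 23.6 and 26 CPM in mock, 8.62, 15.4 and 8.69 with flg22, and 21.9, 27.3 and 15.6 with 2-AA. The flg22 libraries were the lowest 3, although flg22 replicate 2 lay close to 2-AA replicate 3, and mock and 2-AA overlapped. On the log2 scale it changed by -1.17 with flg22 (SE 0.22, edgeR adjusted p = 0.000503), the gene was not called with 2-AA (adjusted p = 0.473), and the treatments differed by 0.99 (SE 0.22, adjusted p = 0.00893). TIP4;1, a vacuolar channel gene of roots, stood at 14.2, 17.3 and 19.9 CPM in mock, 5.28, 5.03 and 9.64 with flg22, and 11.2, 12.3 and 9.93 with 2-AA. The 3 groups did not overlap, and flg22 was lowest, although flg22 replicate 3 (9.64) lay close to 2-AA replicate 3 (9.93). The change was -1.36 with flg22 (SE 0.22, adjusted p = 0.000117). The call with 2-AA (adjusted p = 0.0196) was lost on leaving out mock replicate 3, leaving out 2-AA replicate 3, or dropping all 3 organelle-rich libraries (0.0559 to 0.0838). The difference between the treatments was 0.74 (SE 0.22, adjusted p = 0.0361), not called in 6 alternatives (0.0519 to 0.238) that included leaving out mock replicate 2, flg22 replicate 1 or 2, or 2-AA replicate 1 or 2.

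TIP3;2, a gene of seed vacuoles, was the only called gene of the family below 1 CPM in every library. It had 0, 4 and 0 counts in mock, 12, 23 and 2 with flg22, and 9, 12 and 16 with 2-AA, so that flg22 replicate 3 lay within the mock range. Since only the treated libraries carried it past the filter, it had to differ, and its calls support nothing. It was called higher in both comparisons (edgeR adjusted p = 0.0196 and 0.0203). It overlaps AT1G05333 on the opposite strand over 39.4% of its exon length. Both calls ended on leaving out mock replicate 1, mock replicate 3 or the organelle-rich libraries, that of flg22 also without flg22 replicate 2, and that of 2-AA also without 2-AA replicate 3 (0.0508 to 0.244).

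The NIP class held genes that rose and a gene that fell. NIP5;1 (AT4G10380, chr4:6431161-6435396, minus strand) encodes the boric acid channel through which roots take up boron at low supply. Its level was 25.6, 32 and 25.5 CPM in mock, 80.2, 87.6 and 74.3 with flg22, and 81.1, 99.7 and 75.4 with 2-AA. Every treated library was above mock, and the treated groups overlapped. Its log2 fold change against mock was 1.54 with flg22 (SE 0.11, edgeR adjusted p = 1.15e-07) and 1.62 with 2-AA (SE 0.11, adjusted p = 5.43e-08), and the treatments differed by 0.08 (SE 0.11, adjusted p = 0.689).

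NIP6;1 (AT1G80760, chr1:30350539-30352208, minus strand) encodes a boric acid channel that serves young growing shoot tissue. It stood at 17.5, 18.4 and 17.2 CPM in mock, 5.64, 5.57 and 8.12 with flg22, and 4.24, 5.37 and 3.39 with 2-AA. The 3 groups did not overlap, with 2-AA lowest. The log2 fold change was -1.46 with flg22 (SE 0.17, edgeR adjusted p = 8.55e-06) and -2.04 with 2-AA (SE 0.18, adjusted p = 4.24e-07). The difference between the treatments, -0.58 (SE 0.18, adjusted p = 0.0487), was not called in 10 alternatives, which included leaving out any mock library, flg22 replicate 3, 2-AA replicate 1 or 2-AA replicate 3 (0.0546 to 0.191), and the replicate block (0.0732).

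For these boric acid channel genes the ratio of NIP5;1 to NIP6;1, per kb, was 0.82 to 0.971 in mock, 5.11 to 8.79 with flg22 and 10.4 to 12.4 with 2-AA. NIP5;1 made up 21.8% to 24.9% of the summed NIP level per kb in mock, 43.8% to 51.7% with flg22 and 46.2% to 50% with 2-AA, and NIP6;1 made up 25.6% to 29.5%, 5.89% to 8.56% and 3.97% to 4.82%. Of 3 boron exporter genes, BOR1, which loads boron into the xylem, was not called with flg22 (0.04, SE 0.10, edgeR adjusted p = 0.737) or with 2-AA (-0.19, SE 0.10, adjusted p = 0.105), and BOR2 was not called either. BOR4, an exporter known for tolerance of high boron, fell from 2.53 ± 0.367 CPM in mock to 0.344 ± 0.0829 with flg22 and 0.721 ± 0.0959 with 2-AA (SD, n = 3, edgeR adjusted p = 6.89e-06 and 0.000172).

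NIP3;1 (AT1G31885, chr1:11450315-11452068, plus strand), a channel gene known from arsenite uptake, had the largest rise with flg22 and with 2-AA among the members above 1 CPM. Its level was 1.44, 1.13 and 1.32 CPM in mock, 9.44, 6.87 and 5.38 with flg22, and 6.06, 7.47 and 6.47 with 2-AA. All 6 treated libraries were above all mock libraries, and the treated groups overlapped. Against mock, its log2 fold change was 2.48 with flg22 (SE 0.23, edgeR adjusted p = 7.75e-07) and 2.36 with 2-AA (SE 0.23, adjusted p = 1.02e-06). NIP1;2, whose protein carries an aluminium malate complex in roots, stood at 12.4, 12.6 and 9.7 CPM in mock, 20.6, 18.5 and 17.2 with flg22, and 26.1, 27.9 and 22.9 with 2-AA. The 3 groups stood in that order without overlap. It was called higher with flg22 (adjusted p = 0.000292) and with 2-AA (1.14, SE 0.12, adjusted p = 2.95e-06). Its call between the treatments (adjusted p = 0.0232) was lost on leaving out flg22 replicate 2 or 3, 2-AA replicate 1 or 2, or the organelle-rich libraries (0.0631 to 0.085). NIP1;1, an arsenite channel gene, stood at 18.2 to 28.5 CPM in mock, 21.4 to 30.9 with flg22 and 17.4 to 25.1 with 2-AA, and was not called in any of the 3 comparisons.

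All 3 SIP genes rose with flg22, and 2 of them with 2-AA. SIP1;1, a water channel gene of the endoplasmic reticulum, stood at 61.7, 58.1 and 64.2 CPM in mock, 89.5, 85.2 and 81.6 with flg22, and 77.9, 89.9 and 81.5 with 2-AA. All treated libraries were above mock. On the log2 scale it changed by 0.48 with flg22 (SE 0.07, edgeR adjusted p = 5.66e-05) and 0.44 with 2-AA (SE 0.07, adjusted p = 0.000108), and the treatments differed by -0.04 (SE 0.07, adjusted p = 0.759). SIP2;1 rose from 20.1 to 20.4 CPM in mock to 24.1 to 25.8 with flg22 and 25.3 to 26.4 with 2-AA (adjusted p = 0.0033 and 0.00106), and 11.4% of its exon length overlaps AT3G56940 on the opposite strand. SIP1;2 stood at 2.98, 2.65 and 3.78 CPM in mock, 8.06, 4.09 and 6.9 with flg22, and 4.91, 4.04 and 4.93 with 2-AA. Every treated library was above mock. It rose by 1.02 with flg22 (SE 0.24, edgeR adjusted p = 0.00249) and was not called with 2-AA (adjusted p = 0.0578). The 2-AA call was made in 7 alternatives (0.00595 to 0.047), among them without mock replicate 3, flg22 replicate 1 or flg22 replicate 2 and with DESeq2, and the treatments differed without flg22 replicate 2 (0.0392).

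Between the treatments, 10 of the 30 genes were called beside 15.8% of all genes: 7 lower with 2-AA (7.89% of all genes) and 3 higher (7.86%). Of the PIP genes 4 were lower and 9 not called, of the TIP genes 2 were lower, 2 higher and 3 not called, and of the NIP genes 1 was lower, 1 higher and 5 not called. The lower genes included abundant ones of both the plasma membrane and the vacuole, while the higher ones stood under 30 CPM in every library. The TIP sum with 2-AA was 0.774 of that with flg22 and the PIP sum 0.889. Of the TIP sums, 1187 CPM per kb with flg22 and 919 with 2-AA, TIP1;2 alone made up 729 and 514. Some of these calls rested on single libraries: 6 genes were called without 2-AA replicate 1, and genes called higher numbered 1 without 2-AA replicate 1 and 1 without 2-AA replicate 2.

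**Figure D5:**
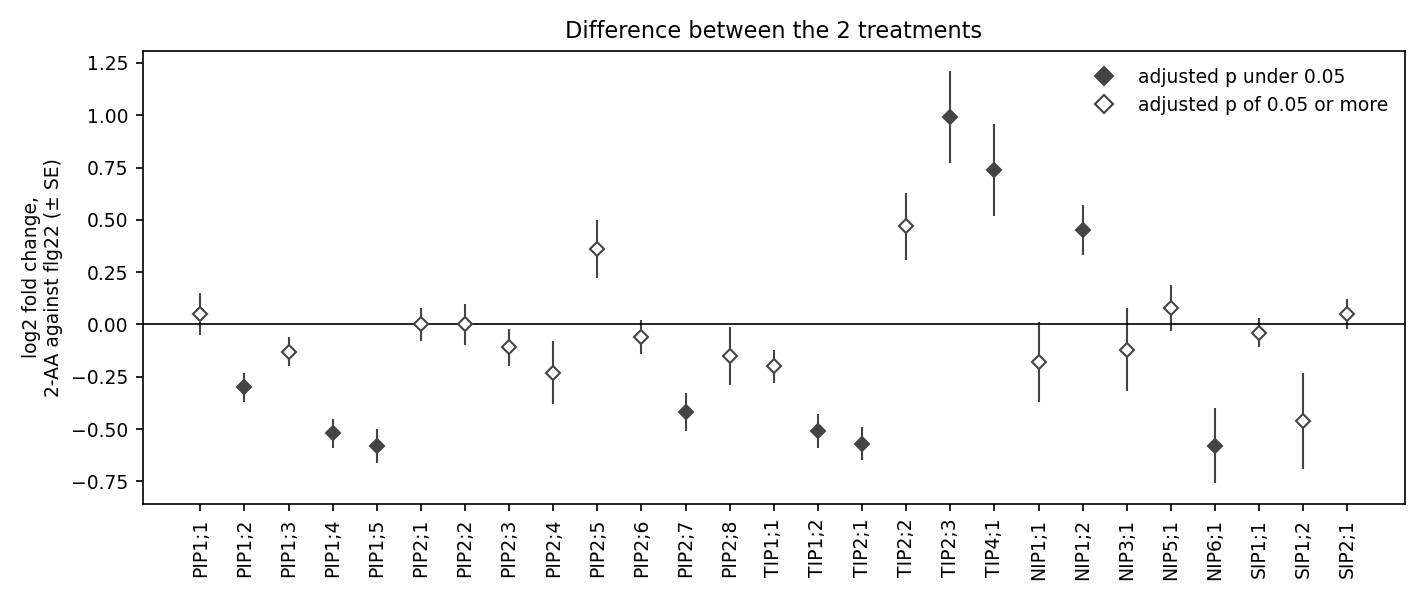
Log2 fold change of 2-AA against flg22 for the same 27 genes, with standard errors as bars, filled where the adjusted p was under 0.05. The points range from -0.58 to 0.99, with the 2 highest among the TIP genes and the filled PIP points all below 0.

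The promoters were searched for letters bound by known factor families, in the 250 bases before each annotated start and on both strands. The W box, bound by WRKY factors of immune responses, was searched as TTGACT and TTGACC, which do not overlap each other. TTGACT lay in 12 of the 35 windows (3 PIP, 4 TIP, 4 NIP and 1 SIP), beside 18.7% of 32545 windows in all. With flg22 these letters stood before 3 of the 7 higher and 4 of the 18 lower genes, and with 2-AA before 2 of 6 and 4 of 19. They also stood before 2 of the 5 genes not called with flg22 and 3 of the 5 not called with 2-AA. In both comparisons the higher genes with TTGACT include TIP3;2, which passed the filter only through the treated libraries. TTGACC lay in 3 of the 35 (11.8% of all) and the ABRE core ACGTG of abscisic acid responses in 4 (21.8%). The evening element AAATATCT of clock-controlled genes (4.56% of all) and the G box CACGTG, which contains ACGTG (5.9%), lay in 0 of the 35. Windows of 2 genes that fell and 1 that rose are shown because they hold the same letters, 5′ to 3′ on the gene's strand from the TAIR10.1 genome, with TTGACT or its reverse complement AGTCAA in capitals.
PIP1;4, chr4:187681-187930, minus strand: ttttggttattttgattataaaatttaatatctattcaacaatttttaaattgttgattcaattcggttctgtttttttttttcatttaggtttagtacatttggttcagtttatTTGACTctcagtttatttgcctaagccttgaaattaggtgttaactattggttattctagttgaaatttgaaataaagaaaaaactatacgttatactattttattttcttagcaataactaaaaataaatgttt
PIP2;7, chr4:16708111-16708360, plus strand: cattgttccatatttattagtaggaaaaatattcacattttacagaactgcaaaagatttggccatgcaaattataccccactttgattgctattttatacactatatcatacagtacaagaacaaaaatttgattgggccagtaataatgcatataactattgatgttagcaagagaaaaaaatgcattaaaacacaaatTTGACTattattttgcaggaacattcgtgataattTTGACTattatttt
NIP3;1, chr1:11450065-11450314, plus strand: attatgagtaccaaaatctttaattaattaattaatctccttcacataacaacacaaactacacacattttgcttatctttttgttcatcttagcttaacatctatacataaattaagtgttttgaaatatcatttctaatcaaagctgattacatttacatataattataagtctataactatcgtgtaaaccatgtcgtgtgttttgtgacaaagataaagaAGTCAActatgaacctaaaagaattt
The first window holds the letters in 1 copy, the second in 2 copies, and the third in 1 copy on the other strand. A match describes the letters only.

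Genes known to act on aquaporin proteins were followed as a list of 9 tested regulators and trafficking factors. With flg22 and with 2-AA 6 were higher, 1 was lower and 2 were not called, with median log2 fold changes of 0.37 and 0.50. The share called was 77.8% in each, beside 59.2% and 62.2% of all genes. SIRK1 was the lower gene in both comparisons, at -0.25 with flg22 (SE 0.07, edgeR adjusted p = 0.00749) and -0.34 with 2-AA (SE 0.07, adjusted p = 0.00087). SYP121, a syntaxin that delivers PIP proteins to the plasma membrane, rose from 30.6 ± 3.35 CPM in mock to 47.3 ± 3.5 with flg22 and 66.7 ± 9.85 with 2-AA (SD, n = 3). Its log2 fold change was 0.63 (SE 0.11, edgeR adjusted p = 0.00022) and 1.12 (SE 0.11, adjusted p = 9.5e-07). RMA1, a ubiquitin ligase gene of the family that holds PIP2 proteins back in the endoplasmic reticulum, rose by 1.11 (SE 0.14, adjusted p = 2.05e-05) and 1.06 (SE 0.14, adjusted p = 2.69e-05). BAK1, the co-receptor of flagellin perception, rose by 0.62 (SE 0.07, adjusted p = 4.81e-06) and 0.90 (SE 0.07, adjusted p = 1.2e-07). CPK7, a calcium-dependent kinase gene linked to PIP2 protein abundance in roots, rose by 0.37 (SE 0.07, adjusted p = 0.000406) and 0.65 (SE 0.07, adjusted p = 2.28e-06). OST1, the guard cell kinase of abscisic acid signalling, was not called with flg22 (0.14, SE 0.09, adjusted p = 0.199) and rose by 0.50 with 2-AA (SE 0.09, adjusted p = 0.000284), and the treatments differed by 0.36 (SE 0.09, adjusted p = 0.0148).

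Markers of water deficit did not all move one way. Of 12, 4 were higher and 5 lower with flg22 (median log2 fold change -0.44), and 5 were higher and 3 lower with 2-AA (median 0.69). That is 75% and 66.7% called, beside 59.2% and 62.2% of all genes. The lower genes were RD29A, P5CS1, ERD10, KIN1 and HAB1 with flg22, and P5CS1, KIN1 and HAB1 with 2-AA. The dehydrin gene XERO2 rose by 1.53 on the log2 scale with flg22 (SE 0.08, edgeR adjusted p = 6.8e-09) and 2.75 with 2-AA (SE 0.08, adjusted p = 5.46e-11), and COR47, another dehydrin gene, by 0.91 (SE 0.08, adjusted p = 5.51e-07) and 1.41 (SE 0.08, adjusted p = 7.77e-09). ABI1, a phosphatase gene that restrains abscisic acid signalling, rose by 1.37 (SE 0.10, adjusted p = 7.83e-08) and 1.56 (SE 0.10, adjusted p = 1.71e-08). HAB1, another such phosphatase gene, was lower in both comparisons, at -0.91 (SE 0.06, adjusted p = 7.4e-08) and -0.50 (SE 0.06, adjusted p = 1.41e-05).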

How the data were processed

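RNA was measured in 9 libraries, 3 per group, as read counts per locus, raw and in 1 table, as the authors deposited them. Trimmomatic 0.36, HISAT2, edgeR and the TAIR10 build are named in the submitters' processing notes, without their settings. The sources used here do not give the read counter, strand use or the handling of reads that match several genes. Counts per library and the share of organelle genes are given above; every column of the table was used.

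Counts were tested with edgeR 4.0.16 (R 4.3.3), after filterByExpr given the group labels (minimum count 10, minimum total 15) and TMM scaling. The 2-sided quasi-likelihood test used 1 fit of group means over all 9 libraries. Benjamini-Hochberg adjustment ran over 21059 genes, with calls at an adjusted p under 0.05. The fit has 6 residual degrees of freedom. CPM are TMM-scaled, CPM per kb divide by the union of annotated exons (RefSeq, TAIR10.1), and the SE is the log2 fold change over the square root of F. The table names loci, and 32548 of its 32833 loci matched the reference table by locus code; family names of members are those of the literature, and TIP3;2 carries the symbol BETA-TIP in the reference. Pairs of libraries of a group differed by more than counting noise (chi-square per degree of freedom of at least 5.62), so none was counted as a repeat.

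The members and gene lists were chosen with earlier results of these data known. Log2 fold changes with SE and adjusted p are given for called members with a change of at least 1 and a mean of at least 1 CPM. They are also given for 10 members taken as class representatives and for called differences between the treatments of at least 0.58. Of the gene lists, up to 3 genes a list and comparison by smallest p were chosen, plus FRK1, BOR1, SYP121 and OST1. Other members are given by level and, where a call turns on it, adjusted p. The differences of PIP1;5, PIP2;8 and OST1 between the treatments, and the changes of SIRK1 against mock, were added after their values were seen. So were the levels of LHY and the names of the lower clock and water deficit genes. Protein sequences were not used here. Alternatives were other scalings and filters, a replicate block, a test against a 1.5-fold change, 2-group fits, leaving out each library, limma-voom (limma 3.58.1) and DESeq2 1.42.0. Leaving out the 3 organelle-rich libraries together, and fitting them as a term, were chosen after seeing the data.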

Additional observations from a re-analysis of the deposited data

How the results depend on the processing

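Calls in the comparisons with mock were unchanged in every alternative but the 1.5-fold test for 26 of 30 members with flg22 and 24 with 2-AA, and for 23 between the treatments. Against a 1.5-fold change, edgeR's glmTreat called 16, 15 and 0 members (18, 17 and 1 at an unadjusted p under 0.05) and 4836, 5586 and 473 genes (flg22, 2-AA, 2-AA against flg22). DESeq2, tested against no change, called 25, 26 and 10 members. Leaving out 1 library gave 22 to 25, 21 to 26 and 6 to 10 members and 11293 to 12505, 12060 to 13198 and 2204 to 3392 genes, the lowest being 6 members without 2-AA replicate 1 and 2204 genes without 2-AA replicate 2. Without the 3 organelle-rich libraries 24, 23 and 9 members were called, and 2090 genes between the treatments. With the replicate number as a block, 25, 26 and 10 members and 12264, 12918 and 3082 genes were called. In their deviations from group means, same-numbered libraries correlated at -0.134 to 0.188 and differently numbered libraries of different groups at -0.149 to 0.22. Whether the numbers pair the libraries cannot be told from these values. The TIP median was -0.77 with flg22 without a filter. Between the treatments the TIP median was 0.48 without a filter and without the organelle-rich libraries, and -0.14 to 0.58 on leaving out 1 library, against -0.05. The NIP sum over mock was 1.65 with flg22 as summed CPM, against 1.44 per kb. Differences near 0 between the treatments changed sign: PIP2;1 stood at 0.00 in 5 alternatives (no filter, replicate block, 2 groups, limma-voom, organelle term) and 0.12 without the organelle-rich libraries. On leaving out 1 library, PIP1;1 ranged from -0.03 to 0.16, PIP2;1 from -0.05 to 0.10, NIP5;1 from -0.04 to 0.16 and SIP1;1 from -0.10 to 0.00. The 5 members that failed the filter on low counts were not tested.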
